A study of Oryza sativa with 18 samples.

Results

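The calcium sensor and calcium kinase families of rice were followed in leaf sheath fed on by the brown planthopper (BPH), an insect that pierces the plant and drinks phloem sap. Members were taken by name. They were the genes whose symbol or synonym, without a leading Os, is CML, CPK, CBL or CIPK plus a number, or CAM1 plus a number. For each gene the single-gene probe set with the highest mean log2 signal over the 18 arrays was used. In all 90 genes carried such a name and 75 of them had a probe set, of 17905 genes with one: 23 CML, 20 CPK, 7 CBL and 24 CIPK genes and the calmodulin gene CAM1.

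Calcium ions rise in the cytosol of plant cells within moments of wounding, insect feeding or pathogen contact, and these families read that rise. Calmodulin (CAM1) and the calmodulin-like proteins (CML) bind calcium through EF hands and then bind other proteins. The CPK proteins are calcium-dependent protein kinases that carry a calmodulin-like domain of their own, so sensor and kinase share a single molecule. The CBL proteins (calcineurin B-like) are sensors with no kinase domain, and they bind and recruit the CIPK proteins, the CBL-interacting protein kinases. In sieve tubes, calcium entry is known to go with the plugging of the tubes that planthoppers feed from.

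The samples fell into 6 groups of 3 arrays, labelled as biological replicates. The variety 9311, labelled susceptible to BPH, and the line NIL-BPH9, labelled resistant, were each sampled at 0 h without insects and at 3 h and 6 h after infestation began. All plants were at the four-leaf stage, and the labels name no other treatment or allele. The later samples have no uninfested counterpart here, so the effects of infestation and of the hour of sampling cannot be told apart. Each array gave 1 MAS5 log2 signal per probe set, and array medians lay between 5.18 and 5.52. A level is given below as a log2 signal, and a change as a difference of log2 signals with its standard error (SE). A probe set's level depends on how its probes bind, so levels are compared between samples and not between genes. For the same reason, a level difference between the lines and a difference in how well their sequences match the probes cannot be told apart.

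Probe sets entered the tests where their signal reached the median of the array on 3 or more arrays. Of the 75 members 65 were tested, and CML24, CML28, CML32, CPK2, CPK6, CPK21, CPK29, CBL5, CIPK20 and CIPK30 were too dim. Differences were tested with limma over all 18 arrays, with Benjamini-Hochberg adjustment over 33094 probe sets and a threshold of 0.05. Every adjusted p below is from that fit. A member is said to have risen, fallen or passed only where its adjusted p is under the threshold. In 40 of the 65 tested members (61.5%) at least 1 of 12 comparisons passed, against 56.7% of all 16046 genes tested, so that share is near the background.

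The leaf sheath label could be set against markers. The green leaf genes CAB2R, RBCS and rca lay far above the array medians in all 6 groups, and the pollen gene RTS, the root transporter gene Lsi2 and the seed gene RAG1 lay below them in all 6. The root gene Lsi1, the pollen-list gene C4 and the seed genes GLB1 and GLUA2 lay above in all 6, and the seed gene GLUA1 in NIL-BPH9 at 6 h alone (5.49 ± 0.09, SD, n = 3). Both phloem markers were higher in 9311 at 3 h than at 0 h, SUT1 by 0.43 (adjusted p = 0.0132) and RPP16 by 0.17 (adjusted p = 0.0125), and so was Lsi1, by 0.89 (adjusted p = 8.11e-05). By 6 h SUT1 had fallen by 0.65 in 9311 and Lsi1 by 0.49, while RPP16 stayed 0.24 above 0 h. None of the 3 passed in a time comparison of NIL-BPH9. The summed signal of 9 genes of dividing cells was 13.4 to 13.5 on the log2 scale in 9311 at 0 h, 12.2 at 3 h and 12.8 at 6 h. In NIL-BPH9 it was 12.5 at 0 h, 12.2 to 12.4 at 3 h and 12.6 at 6 h. The log2 ratio of 3′ to 5′ control signals, a sign of RNA integrity, was 1.15 ± 0.18 (SD, n = 3) in 9311 at 0 h, 1.40 ± 0.07 at 3 h and 1.59 ± 0.39 at 6 h. The NIL-BPH9 arrays gave 1.21 ± 0.27, 1.33 ± 0.35 and 1.33 ± 0.21. The two-sided exact permutation p was between 0.1 and 1 for the 9 pairs of groups compared, and 3 arrays against 3 cannot go below 0.1. Only 9311 at 3 h against 0 h was at 0.1. The part of these shifts in the results below was not tested. With bulk tissue, fewer cells of a type and less RNA per cell cannot be told apart.

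In 9311, 20 of the 65 tested members (30.8%) differed between 3 h and 0 h, against 21.8% of all 16046 genes tested. Of these 13 rose (11.4% of genes did) and 7 fell (10.4% of genes). At 6 h against 0 h it was 10 members (15.4%, against 11.2% of genes), with 9 risen (6.46% of genes) and 1 fallen (4.73%). Between 3 h and 6 h 10 members moved (15.4%, against 7.4% of genes), 8 up (4.4% of genes) and 2 down (3% of genes). In NIL-BPH9 at 3 h, 15 members passed (23.1%, against 19.9% of genes), 5 up (11.2%) and 10 down (8.66%). At 6 h it was 23 members (35.4%, against 25.3% of genes), 12 up (12.3% of genes) and 11 down (12.9%). Centring each array on its median, which raised the median of all genes by 0.12 in this comparison, gave 12 up and 3 down. Under that centring 19.6% of genes passed, in place of 25.3%. From 3 h to 6 h 18 members passed (27.7%, against 21.5% of genes), 12 up (10.5%) and 6 down (11%). It was 12 and 2 with centred arrays, where 14.7% of genes passed. The median difference over the tested members lay between -0.06 and 0.06 on the log2 scale in these 6 comparisons, and over all genes tested between -0.04 and 0.02. The 3 h and 6 h comparisons of a line share its 0 h arrays.

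**Figure D1:**
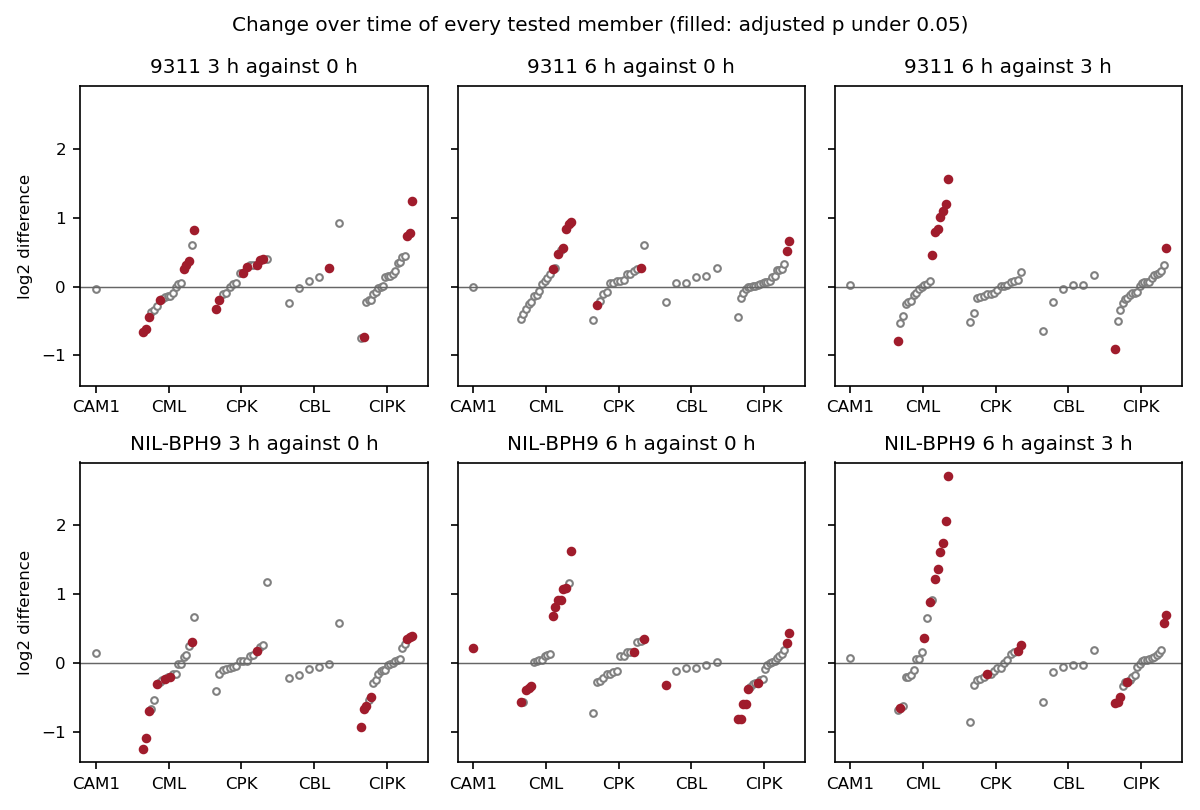
Log2 difference (vertical axis) of each of the 65 tested members in the 6 time comparisons, ordered within each family along the horizontal axis. Filled points passed at an adjusted p under 0.05. The highest filled points of both 6 h against 3 h panels are CML genes, up to 1.56 in 9311 and 2.72 in NIL-BPH9, while no filled point of the CBL family lies beyond 0.31 in size in these panels.

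The clearest pattern among the sensors was in 7 calmodulin-like genes, CML10, CML14, CML15, CML16, CML18, CML27 and CML31. Each of the 7 rose from 3 h to 6 h in both lines, by 0.45 to 1.56 in 9311 and by 0.88 to 2.72 in NIL-BPH9. They were the only CML genes of 20 tested to rise over that interval in 9311 and 7 of the 8 that rose in NIL-BPH9, where the other was CML30. The 7 genes were grouped after their values were seen, so their number gives no test. In the 6 h against 3 h comparisons, which share no arrays between the lines, the genes called up in both lines were 7 of the 8 members that rose in 9311 (87.5%) and 7 of the 12 that rose in NIL-BPH9 (58.3%). Of all genes tested 2.63% were called up in both lines over that interval, 59.8% of those that rose in 9311 and 25.1% of those that rose in NIL-BPH9.

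CML31 moved most. In 9311 its log2 signal was 9.11, 9.16 and 8.92 at 0 h, 8.30, 8.48 and 8.55 at 3 h, and 10.02, 9.98 and 10.03 at 6 h. NIL-BPH9 had 9.48, 10.07 and 9.94 at 0 h, 8.82, 8.88 and 8.54 at 3 h, and 11.46, 11.47 and 11.46 at 6 h. In each line the 3 h arrays lay below and the 6 h arrays above all 0 h arrays, and the NIL-BPH9 arrays at 6 h were the highest of the 18. From 0 h to 3 h CML31 fell by 0.62 (SE 0.12, adjusted p = 0.00145) in 9311 and by 1.08 (adjusted p = 4.05e-06) in NIL-BPH9. From 3 h to 6 h it then rose by 1.56 (2.96-fold, adjusted p = 7.78e-08) in 9311 and by 2.72 (6.57-fold, adjusted p = 7.62e-12) in NIL-BPH9. At 6 h it was above its 0 h level by 0.94 in 9311 and by 1.63 in NIL-BPH9 (SE 0.12 for both).

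CML15 followed the same course with more spread. Its signal in 9311 was 9.80, 10.06 and 9.65 at 0 h, 9.13, 9.10 and 9.28 at 3 h, and 9.97, 10.65 and 10.49 at 6 h. The NIL-BPH9 signals were 10.01, 10.32 and 10.60 at 0 h, 9.24, 9.10 and 8.85 at 3 h, and 10.98, 10.89 and 11.52 at 6 h. The 3 h arrays were the lowest in both lines, and in 9311 the 0 h and 6 h arrays overlapped. The fall at 3 h in 9311 was 0.66 (SE 0.18, adjusted p = 0.0175). That call was lost without 0 h replicate 2 (a difference of -0.55, adjusted p = 0.0901), without 3 h replicate 1 (-0.64, adjusted p = 0.0542) and without 3 h replicate 2 (-0.63, adjusted p = 0.0626). In NIL-BPH9 CML15 fell by 1.25 at 3 h (adjusted p = 8.52e-05) and rose by 2.06 from 3 h to 6 h (4.18-fold, adjusted p = 1.3e-07), a call kept with any 1 array left out. In 9311 the rise from 3 h to 6 h was 1.20 (adjusted p = 0.000316), and the 6 h level was 0.54 above 0 h (SE 0.18, adjusted p = 0.0865).

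CML16 differed from both in 9311, where 3 h was level with 0 h. Its signal there was 11.61, 11.63 and 11.55 at 0 h, 11.63, 11.65 and 11.63 at 3 h, and 12.40, 12.47 and 12.43 at 6 h. Those of NIL-BPH9 were 12.32, 12.23 and 12.11 at 0 h, 11.56, 11.49 and 11.51 at 3 h, and 13.16, 13.14 and 13.09 at 6 h. Only the 6 h arrays stood apart in 9311, while in NIL-BPH9 all 3 times were separate. The 3 h change was 0.04 (SE 0.05, adjusted p = 0.745) in 9311 and -0.70 (adjusted p = 2.01e-08) in NIL-BPH9. From 3 h to 6 h CML16 rose by 0.79 (adjusted p = 6.21e-09) in 9311 and by 1.61 (3.05-fold, adjusted p = 1.16e-13) in NIL-BPH9.

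CML10 fell at 3 h and rose by 6 h in both lines. It stood at 12.30, 12.41 and 12.55 at 0 h in 9311, at 11.99, 11.94 and 11.99 at 3 h, and at 12.93, 12.98 and 13.03 at 6 h. In NIL-BPH9 the arrays were at 12.43, 12.50 and 12.34, then 12.10, 12.11 and 12.16, then 13.26, 13.39 and 13.36. At each time of a line the arrays stood apart from its other times, and at 6 h the NIL-BPH9 arrays lay above those of 9311 (0.36, adjusted p = 0.000453). CML10 rose by 1.01 (adjusted p = 1.94e-09) in 9311 and by 1.21 (adjusted p = 2.86e-11) in NIL-BPH9 between 3 h and 6 h. CML18 moved alike on a smaller scale, from a mean of 10.69 to 11.14 in 9311 and from 10.76 to 11.64 in NIL-BPH9 over those 3 h. Its 3 h falls of 0.19 and 0.20 lost their calls without any of 4 of the 6 arrays compared in each line, where they lay between -0.18 and -0.16 in 9311 and between -0.19 and -0.18 in NIL-BPH9.

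CML14 and CML27 rose late with no call at 3 h. CML14, the dimmest of the 7, went from a mean of 6.40 ± 0.27 (SD, n = 3) at 3 h to 7.50 ± 0.15 at 6 h in 9311 and from 6.12 ± 0.45 to 7.86 ± 0.16 in NIL-BPH9. Its 6 h rise against 0 h in 9311 was 0.91 (adjusted p = 0.0129) and was not called without 6 h replicate 3 (0.83, adjusted p = 0.0589). CML27 went from 9.85 ± 0.20 to 10.69 ± 0.08 in 9311 and from 9.91 ± 0.19 to 11.27 ± 0.05 in NIL-BPH9. Its rise against 0 h in 9311 was 0.47 (adjusted p = 0.0284), and 5 of the 6 arrays compared ended that call when left out (0.37 to 0.49). A dimmer probe set of CML27, with a mean of 5.57, did not follow, at 0.09 in the 6 h against 3 h comparison of NIL-BPH9 (adjusted p = 0.951). That level is close to the array medians.

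**Figure D2:**
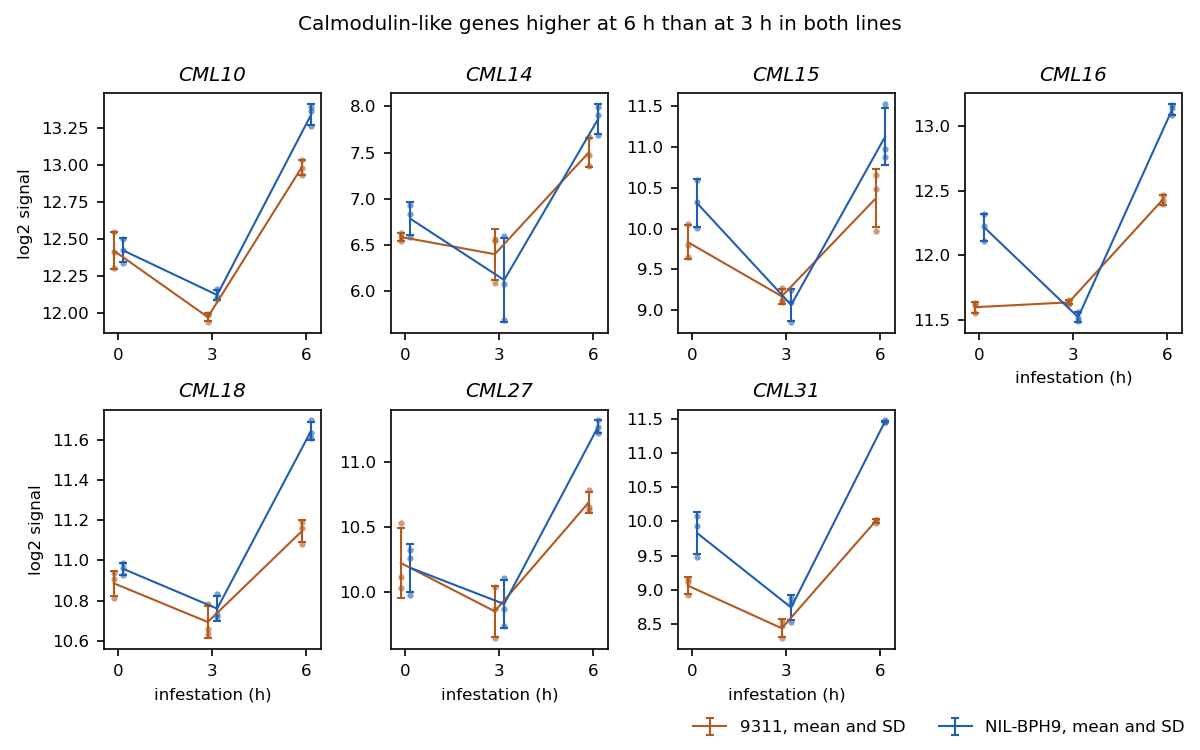
Log2 signal (vertical axes, each panel with its own range) of the 7 calmodulin-like genes at 0, 3 and 6 h (horizontal axes). Points are arrays, lines join the means of 3 arrays, and bars are SD. The mean at 6 h is the highest in every panel and line, reaching 11.46 for CML31 in NIL-BPH9 against 10.01 in 9311.

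CML4 took another course. In 9311 its signal was 9.82, 9.74 and 9.80 at 0 h, 10.80, 10.55 and 10.46 at 3 h, and 9.75, 9.83 and 9.87 at 6 h. In NIL-BPH9 the arrays were at 10.40, 10.15 and 9.99, then 10.09, 10.30 and 10.09, then 10.10, 10.16 and 10.41. In 9311 only the 3 h arrays stood apart, and in NIL-BPH9 the arrays of all 3 times overlapped. The rise at 3 h in 9311 was 0.82 (1.76-fold, SE 0.11, adjusted p = 2.05e-05), and the fall from 3 h to 6 h was 0.79 (adjusted p = 8.09e-05), so that 6 h was 0.03 above 0 h (SE 0.11, adjusted p = 0.912). In NIL-BPH9 the change was -0.02 at 3 h and 0.04 at 6 h (SE 0.11 for both, adjusted p = 0.936 and 0.822). Another probe set of CML4, whose suffix _s_at marks probes shared with other transcripts, rose by 0.76 in 9311 at 3 h and by 0.28 in NIL-BPH9 at 6 h (adjusted p = 0.0154).

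The remaining CML calls were smaller. In 9311 at 3 h CML8 rose by 0.37 (adjusted p = 0.00613), CML9 by 0.31 and CML29 by 0.25. The CML9 call was lost without 0 h replicate 2 or 3 h replicates 2 or 3 (0.25 to 0.32), and that of CML29 without 0 h replicates 1 or 2 or 3 h replicate 1 (0.17 to 0.24). In NIL-BPH9 at 6 h CML8, CML9, CML11 and CML13 were below 0 h, by 0.33, 0.36, 0.57 and 0.40. The CML8 fall was not called without 6 h replicate 2 (-0.30, adjusted p = 0.0576), and median centring ended the calls of CML8 (-0.21, adjusted p = 0.208), CML9 (-0.24), CML11 (-0.45) and CML13 (-0.28). Leaving out any of 4 of the 6 arrays compared also ended the CML11 call (-0.58 to -0.43). CML11 also fell by 0.65 from 3 h to 6 h in NIL-BPH9 (adjusted p = 0.0118), a call lost without 3 h replicate 1 or 6 h replicate 1 (-0.55 and -0.56). CML7, the CML gene with the highest signal, rose by 0.31 in NIL-BPH9 at 3 h (adjusted p = 0.0171), a call that 3 of the 6 arrays compared ended (0.27 to 0.30). CML1, CML3, CML5, CML17 and CML20 passed in none of the 12 comparisons.

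CAM1, which codes for calmodulin itself, moved little. The table of gene names puts the names CAM1-1, CAM1-2 and CAM1-3 on this 1 gene. Other CAM1 genes may exist under other names, and the values here are of this gene alone. Its signal in 9311 lay between 13.53 and 13.76 over all 9 arrays. For NIL-BPH9 the values were 13.38, 13.44 and 13.31 at 0 h, 13.55, 13.51 and 13.52 at 3 h, and 13.59, 13.61 and 13.58 at 6 h. The 0 h arrays of NIL-BPH9 were the 3 lowest of the 18. CAM1 was 0.27 lower in NIL-BPH9 than in 9311 at 0 h (adjusted p = 0.00197) and 0.22 higher at 6 h than at 0 h in NIL-BPH9 (adjusted p = 0.0103). The first call was lost when only the arrays compared were tested. The second call was lost without 0 h replicate 3 (0.19, adjusted p = 0.0594), and its size was 0.34 with centred arrays and 0.14 after quantile normalization.

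**Figure D3:**
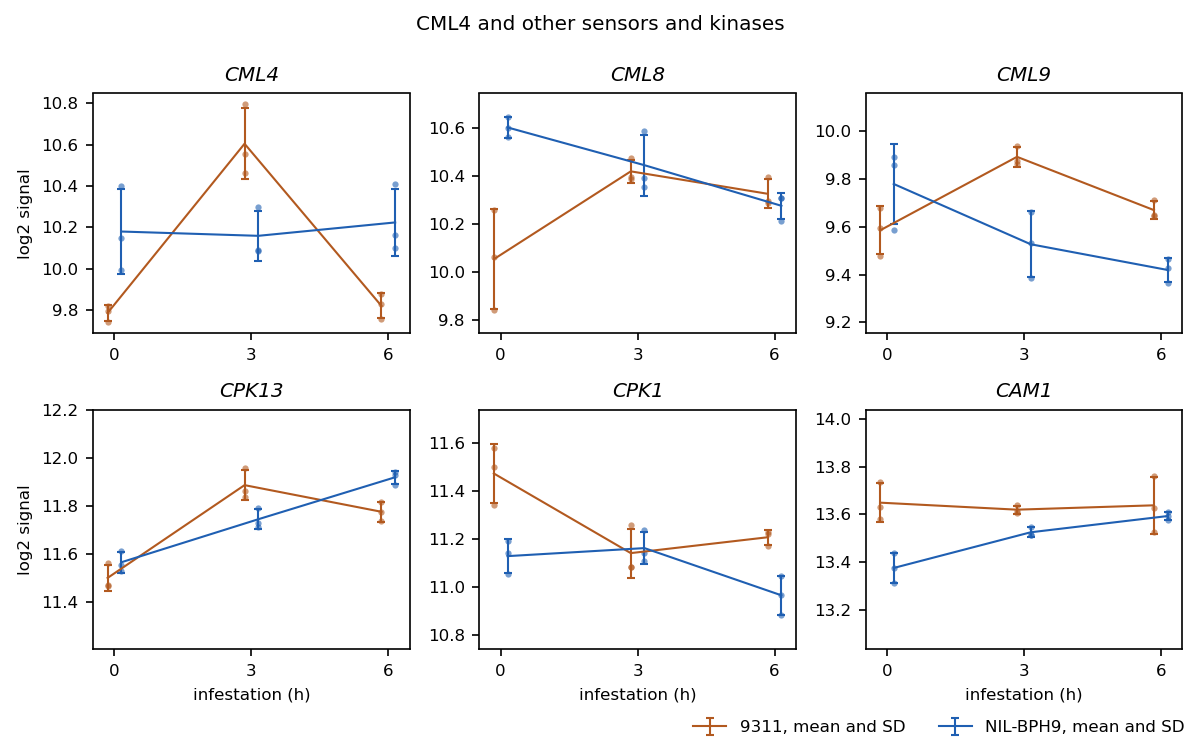
Log2 signal (vertical axes, each panel with its own range) of CML4, CML8, CML9, CPK13, CPK1 and CAM1 at 0, 3 and 6 h (horizontal axes). Points are arrays, lines join the means of 3 arrays, and bars are SD. CML4 peaks at 10.61 in 9311 at 3 h and stays between 10.16 and 10.22 in NIL-BPH9.

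Of the CBL sensors, 2 of 6 tested (33.3%) passed in any comparison, against 56.7% of all genes, with 2 calls in 72 tests. CBL2, a vacuolar membrane sensor in Arabidopsis, stood at 9.61, 9.64 and 9.37 at 0 h and at 9.83, 9.82 and 9.76 at 3 h in 9311. The 3 h arrays were higher without overlap, by 0.26 (SE 0.08, adjusted p = 0.0338), but 4 of the 6 arrays compared ended the call when left out (0.18 to 0.29). CBL6, the CBL gene with the highest signal, went in NIL-BPH9 from 11.95, 11.74 and 11.87 at 0 h to 11.56, 11.51 and 11.56 at 6 h. The 6 h arrays were the lower ones, by 0.31 (adjusted p = 0.00907), a call lost when arrays were centred on their medians (-0.19, adjusted p = 0.172). The salt tolerance sensor CBL4 changed by 0.92 in 9311 at 3 h with an SE of 0.49 (adjusted p = 0.255). The SE of a CBL difference ran from 0.07 to 0.69 on the log2 scale, so changes of the size of CBL4's could not be told from 0 in the dim members.

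The CPK kinases moved by small amounts. In 9311 at 3 h CPK5, CPK7, CPK8, CPK13 and CPK23 rose, by 0.20 to 0.40, and CPK1 and CPK3 fell, by 0.33 and 0.19. CPK13, whose raised expression is known to improve cold, salt and drought tolerance in rice, was the CPK gene called in the most time comparisons. Its signal in 9311 was 11.47, 11.47 and 11.56 at 0 h, 11.96, 11.84 and 11.86 at 3 h, and 11.77, 11.82 and 11.74 at 6 h. In NIL-BPH9 it was 11.62, 11.55 and 11.53 at 0 h, 11.71, 11.79 and 11.73 at 3 h, and 11.89, 11.94 and 11.93 at 6 h. In both lines every infested array lay above every 0 h array, with the highest arrays at 3 h in 9311 and at 6 h in NIL-BPH9. The rises were 0.39 (adjusted p = 2.15e-05) and 0.28 (adjusted p = 0.00139) in 9311 at 3 h and 6 h, and 0.18 (adjusted p = 0.0208) and 0.36 (adjusted p = 6.16e-05) in NIL-BPH9. The 3 h call in NIL-BPH9 was lost without 0 h replicates 2 or 3 or 3 h replicate 2 (0.16 to 0.17).

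CPK1 stood at 11.58, 11.50 and 11.34 at 0 h in 9311 and at 11.08, 11.26 and 11.08 at 3 h. In NIL-BPH9 its 0 h arrays, at 11.05, 11.19 and 11.14, lay with the 3 h arrays of 9311. CPK1 fell by 0.33 in 9311 at 3 h (adjusted p = 0.00248) and was 0.35 lower in NIL-BPH9 than in 9311 at 0 h (adjusted p = 0.00201). The 3 h call was lost in 2 of 13 alternatives, though with no array left out. The call between the lines at 0 h was lost when only the arrays compared were tested. CPK1 was also below 0 h at 6 h in 9311 (-0.27) and lower in NIL-BPH9 at 6 h (-0.24), calls that 5 and 4 of the 6 arrays compared ended (-0.28 to -0.21 and -0.24 to -0.20). Median centring brought the 6 h difference in 9311 to -0.17 (adjusted p = 0.384). CPK7 rose by 0.28 in 9311 at 3 h (adjusted p = 0.00309), and in NIL-BPH9 it rose by 0.26 from 3 h to 6 h (adjusted p = 0.00538). The 9311 calls at 3 h of CPK8 (0.33, adjusted p = 0.0593) and CPK23 (0.17, adjusted p = 0.0516) were lost without 3 h replicate 2. That of CPK3 was lost without 3 h replicates 2 or 3 (-0.18 and -0.19), and that of CPK5 without 0 h replicate 3 or 3 h replicate 3 (0.27 and 0.25). CPK19, the CPK gene with the highest signal, fell by 0.16 from 3 h to 6 h in NIL-BPH9 (adjusted p = 0.0379), and 4 of the 6 arrays compared ended that call (-0.17 to -0.12), as did median centring (-0.07, adjusted p = 0.69). The 8 members CPK4, CPK9, CPK12, CPK17, CPK18, CPK20, CPK22 and CPK24 passed in no comparison.

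Among the CIPK kinases, falls at 6 h were called in NIL-BPH9. There 6 of the 22 tested fell at 6 h against 0 h, namely CIPK2, CIPK8, CIPK10, CIPK18, CIPK31 and CIPK32, against 12.9% of all genes, and in 9311 0 of 22 did, against 4.73% of genes. With centred arrays only 3 members of any family were called lower in NIL-BPH9 at 6 h, CIPK8, CIPK10 and CIPK18. The counts themselves were not tested against each other, and the tests of single genes are given with the line differences. CIPK10 in NIL-BPH9 stood at 12.26, 12.37 and 12.78 at 0 h, 11.37, 11.72 and 11.52 at 3 h, and 11.69, 11.62 and 11.64 at 6 h. In 9311 its arrays ran from 11.42 to 12.14, with all times overlapping. In NIL-BPH9 the infested arrays lay below every 0 h array. CIPK10 fell there by 0.93 at 3 h (1.91-fold, SE 0.15, adjusted p = 0.000182) and by 0.82 at 6 h (adjusted p = 0.000722), against -0.22 and -0.04 in 9311 (adjusted p = 0.394 and 0.937). Its 4 probe sets fell by 0.92 to 1.04 at 3 h in NIL-BPH9.

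CIPK8, known in Arabidopsis for a role in nitrate responses, was 0.99 higher in NIL-BPH9 than in 9311 at 0 h (1.99-fold, adjusted p = 2.11e-06). Its 0 h arrays were at 9.32, 9.39 and 9.04 in 9311 and at 10.15, 10.22 and 10.36 in NIL-BPH9. At 3 h the NIL-BPH9 arrays were at 9.48, 9.64 and 9.71 and at 6 h at 9.56, 9.59 and 9.81. Uninfested NIL-BPH9 was the only group above 10, and after infestation the line approached the 9311 level. The falls in NIL-BPH9 were 0.63 at 3 h (adjusted p = 0.0003) and 0.59 at 6 h (adjusted p = 0.00061). At 3 h and 6 h the lines differed by 0.22 and 0.25 (SE 0.10 for both, adjusted p = 0.273 and 0.152).

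CIPK18 fell late. The NIL-BPH9 arrays were at 11.03, 10.96 and 11.12 at 0 h, at 10.72, 10.78 and 10.85 at 3 h, and at 10.23, 10.11 and 10.33 at 6 h. In 9311 its arrays ran from 10.42 to 11.14, and the times overlapped. The 6 h arrays of NIL-BPH9 were below all others, by 0.81 against 0 h (adjusted p = 0.000433), by 0.56 against 3 h (adjusted p = 0.00822) and by 0.65 against 9311 at 6 h (adjusted p = 0.00383). With centred arrays the difference between 6 h and 3 h was -0.47 (adjusted p = 0.0555). CIPK2 fell by 0.59 from 3 h to 6 h in NIL-BPH9 (adjusted p = 1.99e-05). At 6 h against 0 h it fell by 0.38 (adjusted p = 0.00227), which median centring brought to -0.26 (adjusted p = 0.12). That CIPK2 probe set has the suffix _x_at, and another probe set of the gene gave a larger fall of 0.70 (adjusted p = 0.0202). CIPK32 fell by 0.60 there (adjusted p = 0.0117), a call lost without 0 h replicate 3 (-0.50, adjusted p = 0.07) and on median centring (-0.48, adjusted p = 0.06). CIPK31 fell by 0.28, and 5 of the 6 arrays compared ended its call (-0.30 to -0.23), as did median centring (-0.16, adjusted p = 0.356).

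CIPK1, like CPK13, rose in each of the 4 comparisons with 0 h. Its signal in 9311 was 10.50, 10.46 and 10.14 at 0 h, 11.23, 11.08 and 11.13 at 3 h, and 11.05, 10.98 and 11.05 at 6 h. NIL-BPH9 had 10.57, 10.39 and 10.35 at 0 h, 10.78, 10.85 and 10.80 at 3 h, and 10.81, 10.89 and 10.90 at 6 h. All infested arrays lay above the 0 h arrays of their line. The rises were 0.78 (1.72-fold, adjusted p = 1.64e-06) and 0.66 (adjusted p = 2.43e-05) in 9311, and 0.37 (adjusted p = 0.00348) and 0.43 (adjusted p = 0.00106) in NIL-BPH9. These calls were kept with any 1 array left out.

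CIPK5 and CIPK6 moved at 3 h and moved back by 6 h in 9311. CIPK5 was at 6.42, 6.98 and 6.65 at 0 h, 7.96, 7.86 and 7.96 at 3 h, and 7.19, 6.91 and 6.95 at 6 h in 9311. Its NIL-BPH9 arrays ran from 7.03 to 7.60 with no order by time. The rise of 1.24 in 9311 at 3 h (2.36-fold, SE 0.19, adjusted p = 0.000133) was the largest of all members there, and the fall from 3 h to 6 h was 0.91 (adjusted p = 0.00571). In NIL-BPH9 the 3 h change was -0.02 (SE 0.19, adjusted p = 0.965).

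CIPK6 went down where CIPK5 went up. In 9311 it was at 10.98, 11.20 and 11.28 at 0 h, 10.42, 10.40 and 10.45 at 3 h, and 10.96, 10.95 and 11.02 at 6 h. The NIL-BPH9 signals were 10.67, 10.52 and 10.51 at 0 h, 10.95, 10.89 and 10.90 at 3 h, and 10.78, 10.92 and 10.88 at 6 h. The 3 h arrays were the lowest of 9311, and the 0 h arrays the lowest of NIL-BPH9. CIPK6 fell by 0.73 in 9311 at 3 h (1.65-fold, adjusted p = 5.91e-07) and rose by 0.34 in NIL-BPH9 (adjusted p = 0.00197). It was the only member to pass at 3 h in opposite directions in the lines. It then rose by 0.55 in 9311 from 3 h to 6 h (adjusted p = 3.55e-05).

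CIPK14, the CIPK gene with the highest signal, is known to take part in defence responses of cultured rice cells. It dipped at 3 h in NIL-BPH9. Its arrays there were at 13.13, 13.22 and 13.33 at 0 h, 12.52, 12.56 and 12.57 at 3 h, and 13.30, 13.20 and 13.27 at 6 h. It fell by 0.68 (adjusted p = 0.000108) and rose by 0.70 (adjusted p = 5.67e-05), with the 3 h arrays separate from the rest. In 9311 the 3 h change was -0.20 (SE 0.10, adjusted p = 0.221). CIPK25 rose by 0.39 at 3 h in NIL-BPH9 (adjusted p = 0.000323), from 10.66 ± 0.03 (SD, n = 3) to 11.05 ± 0.04. CIPK17 rose by 0.74 in 9311 at 3 h (adjusted p = 0.0108), a call lost without 0 h replicate 2 (0.64, adjusted p = 0.0588). CIPK23, a kinase of the potassium channel AKT1, and CIPK24, the kinase of the salt tolerance pathway that CBL4 belongs to, passed in no comparison, and neither did CIPK7, CIPK11, CIPK12, CIPK21, CIPK26 and CIPK29.

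**Figure D4:**
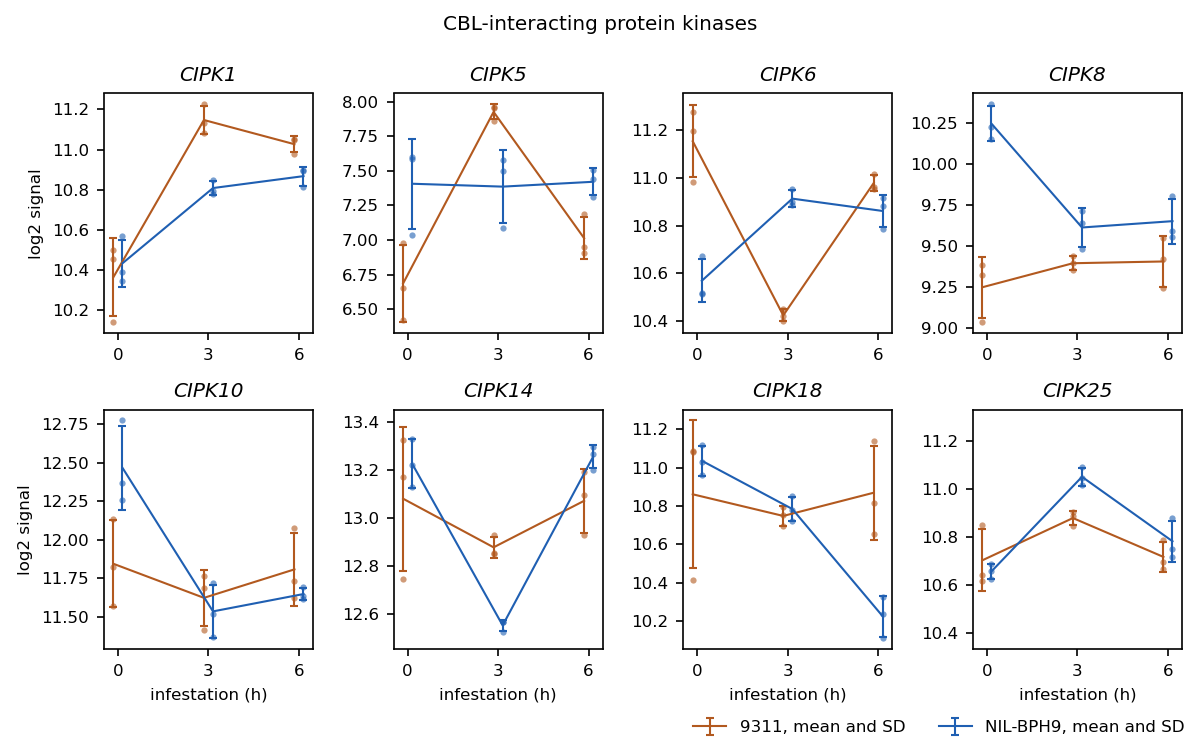
Log2 signal (vertical axes, each panel with its own range) of 8 CIPK genes at 0, 3 and 6 h (horizontal axes). Points are arrays, lines join the means of 3 arrays, and bars are SD. CIPK6 runs in opposite directions from 0 h to 3 h in the lines, CIPK8 and CIPK10 start high in NIL-BPH9 and fall, and CIPK5 peaks at 7.93 in 9311 at 3 h.

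The lines were also compared at each time. At 0 h 15 of 65 tested members differed (23.1%, against 20.4% of genes), 10 higher in NIL-BPH9 (9.32% of genes) and 5 lower (11.1%). At 3 h 7 members differed (10.8%, against 10.1% of genes), 1 higher (5.78%) and 6 lower (4.34%). At 6 h 12 differed (18.5%, against 15.9% of genes), 9 higher (7.95%) and 3 lower (7.93%). It was 7 and 1 with centred arrays, where 9.22% of genes passed. Of the 9 higher at 6 h, 8 were CML genes (40% of the 20 CML genes tested, against 7.95% of genes). Among these 8 were 6 of the 7 late-rising genes. Those 7 were grouped by values of the same 6 h arrays, so that number gives no test. CML14 was the exception among the 7, at 0.36 (SE 0.22, adjusted p = 0.342).

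Before infestation CML31 was 0.77 higher in NIL-BPH9 than in 9311 (adjusted p = 0.000232) and CML16 0.62 higher (adjusted p = 1.2e-07). At 3 h neither passed. At 6 h CML31 was 1.45 higher (2.74-fold, adjusted p = 1.17e-07), CML16 0.70 (adjusted p = 2.31e-08), CML27 0.58 (adjusted p = 0.00454) and CML18 0.50 (adjusted p = 7.14e-06). CML15 was 0.76 higher at 6 h (adjusted p = 0.0096), which was not called without 9311 6 h replicate 1 or without NIL-BPH9 6 h replicate 3 (0.56 for both). CML4 was higher in NIL-BPH9 by 0.39 at 0 h and by 0.40 at 6 h and lower by 0.45 at 3 h (a difference of -0.45). Each of these 3 CML4 calls was lost on leaving out 1 array: 9311 replicate 2 or NIL-BPH9 replicate 1 at 0 h (0.37 and 0.29), 9311 replicate 1 or NIL-BPH9 replicates 1 or 3 at 3 h (-0.41 to -0.35), and 9311 replicate 1 or NIL-BPH9 replicate 3 at 6 h (0.37 and 0.31). Among the kinases CPK8 was 0.51 higher at 0 h (adjusted p = 0.0015) and CPK3 lower by 0.34 (a difference of -0.34, adjusted p = 0.000114). CIPK6 lay lower at 0 h (-0.58, adjusted p = 9.71e-06) and higher at 3 h (0.49, adjusted p = 8.65e-05) in NIL-BPH9. CML7 was lower there at 0 h, by a difference of -0.37 (adjusted p = 0.00466), or -0.22 (adjusted p = 0.00442) without 9311 replicate 3. That CML7 call was lost when only the arrays compared were tested. CIPK5 was 0.72 higher at 0 h (adjusted p = 0.0141), a call lost without 9311 replicate 1 or NIL-BPH9 replicates 1 or 2 (0.59 to 0.63). At 3 h CIPK16 differed by -0.52, a call that each of the 6 arrays compared ended (-0.59 to -0.43). CML9 differed by -0.37 at 3 h, which was lost without 9311 replicate 3 or NIL-BPH9 replicate 1 (-0.34 and -0.29). CIPK2 differed by -0.26 at 6 h, and 4 of 6 arrays ended that call (-0.28 to -0.21). That other CIPK2 probe set gave -0.57 (adjusted p = 0.0785).

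Whether the responses themselves differed was tested as the change in NIL-BPH9 minus the change in 9311. For the 3 h response 17 of 65 tested members passed (26.2%, against 15.6% of genes), 4 positive (8.77%) and 13 negative (6.79%), or 1 and 7 with centred arrays, where 7.03% of genes passed. For the 6 h response 11 passed (16.9%, against 10.2% of genes), 5 positive (5.83%) and 6 negative (4.36%). With centred arrays 4 passed, 2 in each direction, against 3.45% of genes. For the change from 3 h to 6 h, a comparison added after values had been seen, 9 passed (13.8%, against 6.44% of genes), 7 positive (3.49%) and 2 negative (2.95%), and with centred arrays 5 passed, against 2.59% of genes. These 3 differences share arrays with each other.

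CIPK6 had the clearest difference at 3 h, 1.07 (SE 0.10, adjusted p = 8.25e-07), followed in p by CML16 at -0.73 (adjusted p = 2.5e-06), CML4 at -0.84 (adjusted p = 0.000957), CIPK8 at -0.78 (adjusted p = 0.00168) and CIPK5 at -1.26 (SE 0.27, adjusted p = 0.00432). These 5 calls were kept with any 1 array left out. From 3 h to 6 h CML31 rose by 1.15 more in NIL-BPH9 than in 9311 (SE 0.17, adjusted p = 0.000428), CML16 by 0.81 more (adjusted p = 1.49e-06) and CML18 by 0.43 more (adjusted p = 0.00359). For CML15 that difference was 0.86 (SE 0.26, adjusted p = 0.0678). Against 0 h the CML31 rise at 6 h was larger in NIL-BPH9 by 0.69 (adjusted p = 0.0222), which was lost without 9311 6 h replicate 2 (0.67, adjusted p = 0.0525) and on median centring (0.71, adjusted p = 0.0576). For CML16 the 6 h responses differed by 0.08 (SE 0.07, adjusted p = 0.587), so its higher level in NIL-BPH9 at 6 h stood beside a like difference at 0 h.

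**Figure D5:**
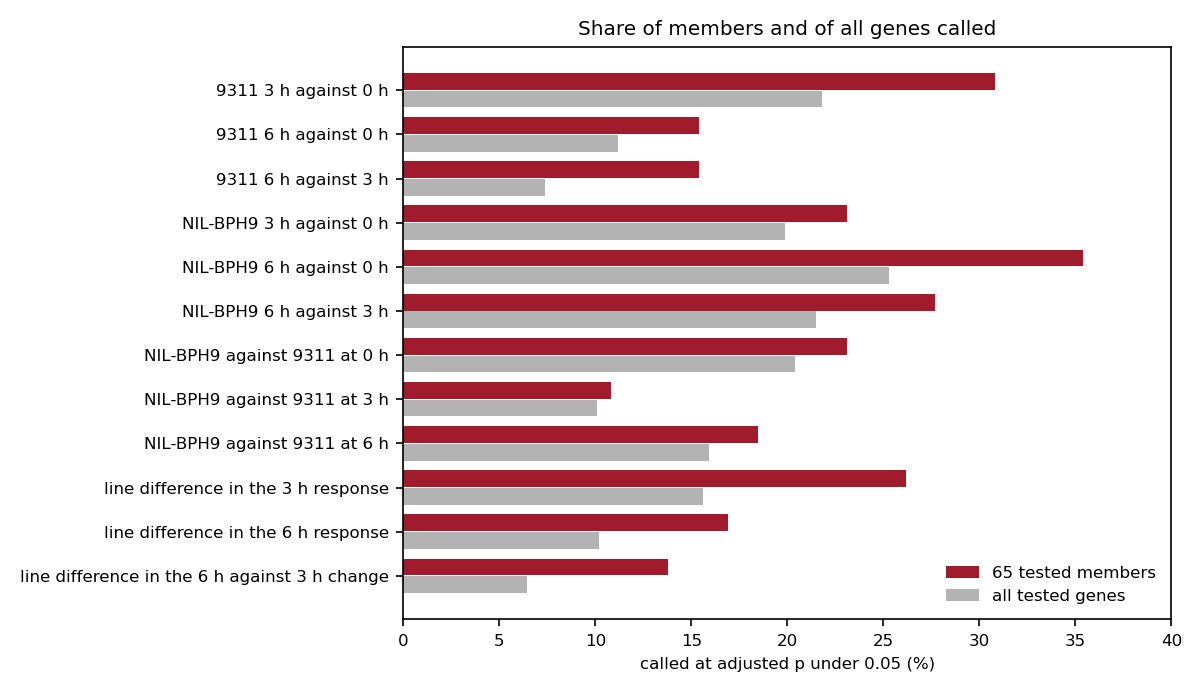
Percent of the 65 tested members (dark bars) and of all 16046 tested genes (grey bars) that passed at an adjusted p under 0.05 (horizontal axis) in the 12 comparisons (vertical axis). The members' bar is the longer one in each comparison, from 10.8% against 10.1% for the lines at 3 h to 35.4% against 25.3% for NIL-BPH9 at 6 h against 0 h. The comparisons share arrays, and the first of these orders was not kept in every fit with 1 array left out. Without NIL-BPH9 3 h replicate 1, 2 members passed between the lines at 3 h, against 7.14% of genes.

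Other genes of calcium transport and decoding were taken from lists by name. Of 2 calcium channel genes measured, TPC1, a voltage-gated channel that lets calcium through, fell in NIL-BPH9 at 6 h by 0.64 (SE 0.11, adjusted p = 0.000465). At 0 h it was 0.33 higher in NIL-BPH9 than in 9311 (adjusted p = 0.0498), and at 6 h the lines differed by -0.22 (SE 0.11, adjusted p = 0.223). Its 0 h arrays overlapped, at 11.07, 10.93 and 10.46 in 9311 and at 10.98, 11.23 and 11.24 in NIL-BPH9. The 6 h responses differed between the lines by -0.55 (adjusted p = 0.0365), a difference that uses the same 0 h arrays. Neither call between the lines was tried with 1 array left out. The other channel gene, GLR3.1, passed in none. Of 10 pump and exchanger genes, 9 were tested, and in 9311 only CAX2, a vacuolar calcium and proton exchanger, passed, with a rise of 0.48 at 3 h (adjusted p = 0.022). In NIL-BPH9 the calcium pump gene ACA8 fell by 0.45 at 6 h (adjusted p = 0.00686), and CAX1a and CAX3 fell by 0.40 and 0.27 from 3 h to 6 h (adjusted p = 0.0316 and 0.00454). Before that fall CAX3 had risen by 0.21 at 3 h (adjusted p = 0.028). CCAMK, a calcium and calmodulin kinase known from root symbiosis, fell at 3 h by 0.53 in 9311 (adjusted p = 0.000283) and by 0.27 in NIL-BPH9 (adjusted p = 0.0429), and rose again by 0.45 in 9311 by 6 h (adjusted p = 0.00325). The calmodulin genes CAM2 and CAM3 were lower in NIL-BPH9 at 0 h, by differences of -0.33 and -0.29 (adjusted p = 0.0133 and 0.00789), as CAM1 was, and CAM2 fell by 0.30 in 9311 at 3 h (adjusted p = 0.0218). RBOHB, an NADPH oxidase gene, passed in none of the 12 comparisons.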

How the data were processed

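Total RNA of 18 leaf sheath samples was hybridised, as biotin-labelled cRNA, to 1-colour Affymetrix arrays. The authors deposited 1 log2 value per probe set and array, made with MAS5 per the submitters' processing notes. The version and options of that program are not given here. The scale was read from the values, whose 2% trimmed mean was 500.1 in linear units on every array. No value was rescaled. Of 57381 probe sets, 187 controls were left out, and 22436 had exactly 1 gene in the platform annotation, named through the RefSeq gene table of assembly ASM3414082v1. Of the 75 members, 4 rested on a probe set with the suffix _x_at and 5 on 1 with _s_at, which may bind related transcripts.

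Differences were tested with limma 3.58.1 (R 4.3.3): group means over all 18 arrays, contrasts, moderation by eBayes with a trend on intensity, and Benjamini-Hochberg adjustment over 33094 probe sets. For all genes the brightest probe set was taken, and a gene was counted where that probe set was tested. The test was checked on simulated data. RNA integrity was compared with a two-sided exact permutation test over 7 pairs of control probe sets. Genes were named by a rule: CML4, CML15 and CML31, the 3 largest called rises and falls of each comparison with separate arrays, the brightest member of each family, and members whose 3 h or 6 h responses differed between the lines; members named beyond it complete a family's counts. The members and lists were chosen with earlier results of these data known. Alternatives were quantile normalization, median centring, no filter on low values, a floor at a log2 of 5, only the arrays compared, _x_at and _s_at probe sets last, a replicate block and leaving out each array, run for the members and not for the other calcium genes. The comparison of the lines' 6 h against 3 h changes was chosen after seeing the data. The number of arrays limits the precision. The genes CBL1, CBL7, CIPK3, CIPK9, CIPK13, CIPK15, CIPK27, CIPK33, CML2, CML21, CML22, CPK11, CPK14, CPK25 and CPK28 had no single-gene probe set here.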

Additional observations from a re-analysis of the deposited data

Results flagged for a closer look

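The lines' responses differed, by limma's test of the difference itself (the change in NIL-BPH9 minus the change in 9311, 3 arrays a group), in the members given here as log2 differences. With centred arrays the 3 h calls kept were those of CML4, CML8, CML9, CML16, CIPK5, CIPK6, CIPK8 and CIPK16. The 6 h calls kept were those of CML8, CML18, CIPK6 and CIPK8. From 3 h to 6 h they were those of CML4, CML16, CML18, CML31 and CIPK6. All other calls below were lost there. Among the sensors, CML4 rose at 3 h in 9311 and not in NIL-BPH9, a difference of -0.84 at 3 h and of 0.85 from 3 h to 6 h. CML16 fell at 3 h in NIL-BPH9 and not in 9311, at -0.73, and then rose further, at 0.81. CML31 rose further in NIL-BPH9, at 0.69 for 6 h against 0 h and 1.15 for 6 h against 3 h. CML18 did likewise, at 0.43 for both, and the 6 h responses of CML10 and CML27 differed by 0.35 and 0.62. The CML27 call was lost without any of 9 of the 12 arrays compared (0.47 to 0.67).

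CML8 and CML9 rose at 3 h in 9311 and fell by 6 h in NIL-BPH9. Their differences were -0.52 and -0.56 at 3 h, and -0.60 and -0.44 at 6 h. The 6 h call of CML9 was lost without any of 10 of the 12 arrays (-0.47 to -0.39). CML29 differed by -0.41 and CML7 by 0.44 at 3 h. The CML7 call was lost without 9311 3 h replicate 2 (0.40) or without NIL-BPH9 0 h replicate 3 (0.41).

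Among the CPK kinases the 3 h responses differed by -0.38 for CPK7, -0.47 for CPK8, 0.37 for CPK1 and 0.29 for CPK3. Losing any of 10 of 12 arrays ended the call of CPK8 (-0.49 to -0.37), and any of 4 that of CPK1 (0.33 to 0.34). From 3 h to 6 h CPK7 differed by 0.35 and CPK13 by 0.29, calls that 6 and 7 of the 12 arrays ended (0.31 to 0.35 and 0.25 to 0.29). None of these CPK calls was kept with centred arrays.

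Among the CIPK kinases CIPK6 moved in opposite directions at 3 h, a difference of 1.07, with 0.47 at 6 h and -0.60 from 3 h to 6 h. CIPK5 differed by -1.26 and CIPK16 by -0.94 at 3 h. CIPK16 stood at 8.36 ± 0.06 (SD, n = 3) at 0 h and 8.81 ± 0.16 at 3 h in 9311, and at 8.78 ± 0.26 and 8.29 ± 0.09 in NIL-BPH9. Its 3 h change in 9311 was not called, and 5 of the 6 arrays compared ended the call of its fall in NIL-BPH9 (-0.52 to -0.36). The call of the difference between the lines was kept under every alternative. The only probe set of CIPK16 has the suffix _x_at. CIPK8 differed by -0.78 at 3 h and -0.75 at 6 h, and CIPK18 by -0.82 at 6 h. The CIPK8 calls were kept with centred arrays, and the CIPK18 call was lost. CIPK10 differed by -0.71 at 3 h and -0.78 at 6 h, and 7 and 5 of the 12 arrays compared ended these calls (-0.70 to -0.56 and -0.78 to -0.63). CIPK1 differed by -0.41 at 3 h, a call ended by 5 of 12 arrays (-0.41 to -0.34). CIPK14 differed by -0.47 at 3 h and by 0.51 from 3 h to 6 h, calls ended by 8 and 11 of 12 (-0.49 to -0.42 and 0.44 to 0.54). Without 9311 0 h replicate 3 its 3 h difference was -0.30, still called (adjusted p = 0.0419). CIPK2 differed by -0.41 at 6 h and by -0.40 from 3 h to 6 h, calls ended by 4 and 9 of 12 (-0.41 to -0.35 and -0.42 to -0.34). Another probe set of CIPK2 gave -0.91 (adjusted p = 0.0608) and -0.75 (adjusted p = 0.176).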

How the results depend on the processing

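Of 167 calls of single members, 86 were kept under every alternative run, and in 2393 alternative values 0 changed direction and 359 fell short of the threshold. The lack of reversals is no test, since it was largely fixed in advance. Dropping the filter, using only the arrays compared and the replicate block leave the difference itself unchanged. In the 9 pairs of groups compared the arrays of each called member did not overlap, so leaving out 1 array could not reverse a call. All 10 calls from 3 h to 6 h in 9311 were among the 86. Tested on only the arrays compared, the count of members called moved from 20 to 10 in 9311 at 3 h, from 10 to 5 in 9311 at 6 h, from 15 to 7 between the lines at 0 h and from 7 to 12 at 3 h. Of all genes 11.3%, 3.65%, 7.27% and 14.4% were called there, in the same order, in place of 21.8%, 11.2%, 20.4% and 10.1%. The line differences moved on only the arrays compared from 17 to 11 (3 h), from 11 to 5 (6 h) and from 9 to 16 (6 h against 3 h). The shares of all genes were then 11.8%, 5.38% and 10.5%. Median centring raised the median of all genes by 0.12 in NIL-BPH9 at 6 h. It left 15 members called there, 12 up and 3 down in place of 12 and 11, against 19.6% of genes. In the line differences it left 8, 4 and 5, against 7.03%, 3.45% and 2.59% of genes. Leaving out 1 array gave 13 to 23 calls in 9311 at 3 h, 7 to 11 at 6 h and 10 to 10 from 3 h to 6 h. Of all genes 16.5% to 23%, 7.93% to 15% and 5.07% to 5.66% were called there, in the same order. In NIL-BPH9 it gave 12 to 14, 20 to 23 and 14 to 16, against 14.2% to 16.4%, 15% to 21.9% and 16.4% to 17.4% of genes. Between the lines it gave 14 to 17 at 0 h, 2 to 5 at 3 h and 7 to 11 at 6 h. The shares of all genes were 16.1% to 23.3%, 6.87% to 7.83% and 10.9% to 13.3%. In the line differences it gave 12 to 19 (3 h), 6 to 17 (6 h) and 5 to 9 (6 h against 3 h). There 11.9% to 19.7%, 6.27% to 17.3% and 4.55% to 5.31% of genes were called. Arrays that moved a count by over 1.5 times are given with the count and the share of genes called without them. For 9311 at 3 h it was 3 h replicate 2 (13, 16.5%). For the 7 calls between the lines at 3 h they were NIL-BPH9 replicates 1 (2, 7.14%) and 3 (3, 7.64%) and 9311 replicates 1 (3, 7.83%) and 3 (3, 7.23%). For the 12 at 6 h they were 9311 replicate 1 (7, 11.7%) and NIL-BPH9 replicate 3 (7, 11.8%). For the 6 h line difference they were 9311 0 h replicate 1 (17, 17.3%) and 9311 6 h replicate 2 (6, 6.27%). Replicate 3 of NIL-BPH9 did so too, at 0 h (7, 6.52%) and at 6 h (7, 6.9%). For the 6 h against 3 h line difference they were 9311 6 h replicate 1 (5, 5.01%) and NIL-BPH9 3 h replicate 1 (5, 4.85%). The deviations of same-numbered replicates had correlations of -0.11 to 0.07 over probe sets, and the numbers were not taken to pair the arrays. Same-numbered arrays were each other's best match for 0 to 3 of the 3 numbers. It was 3 in NIL-BPH9 at 6 h against 0 h, with correlations of 0.006 to 0.016. Such small values do not settle whether the arrays were paired. With a replicate block the counts were 20, 9 and 10 in 9311, 15, 24 and 17 in NIL-BPH9, 15, 6 and 12 between the lines and 17, 11 and 8 in the line differences. The shares of all genes, in the same order, were 20.4%, 10.3% and 6.64%, then 18.2%, 23.8% and 20.4%. Between the lines they were 18.8%, 9.23% and 14.6%, and in the line differences 14.2%, 8.68% and 5.72%.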
